A study of Mus musculus with 47 samples.

Results

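The genes described here are 38 mouse genes of the unfolded protein response and of protein folding in the endoplasmic reticulum (ER). They were taken by symbol from a fixed list, and all 38 were found among the 21980 gene symbols of the expression table. The list holds 17 chaperones and folding enzymes, 5 stress sensors or transcription factors, 5 genes of the ATF4 arm, 8 genes of ER-associated degradation and 3 genes of the translocon. They were measured by RNA-seq in 47 libraries of sorted mammary cells from 20 FVB mice, all of them ovariectomized and treated for 14 days. The treatments were estradiol plus progesterone with telapristone acetate (EP+TPA), estradiol plus progesterone with mifepristone (EP+RU486), estradiol plus progesterone alone (EP), and sham. TPA and RU486 are both steroids that block the progesterone receptor; they share a dimethylaminophenyl group, and TPA has a progesterone-like side chain where RU486 has a propynyl group. The labels give no doses and no ages, and sham mice also lacked ovaries, so that their glands had no ovarian hormone supply. Cells were sorted by flow cytometry into luminal mature (LM), luminal progenitor (LP) and mammary stem cell (MSC) fractions, the last being the basal fraction of the gland. The 12 groups of fraction and treatment had 4 mice each, except for EP-treated LM cells, which had 3.

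Cells that secrete protein fold it in the ER, and misfolded protein there sets off the unfolded protein response. The membrane sensor IRE1 (gene Ern1) splices the Xbp1 message so that it encodes the active transcription factor XBP1, and the sensor ATF6 releases a transcription factor from its own chain. These factors raise chaperones such as BiP (Hspa5), disulfide isomerases and the degradation machinery. The sensor PERK (Eif2ak3) slows translation while favouring translation of ATF4, which drives Ddit3 (the death-associated factor CHOP), Trib3, Asns and Chac1. ATF4 is also raised by amino acid shortage and other stresses, so the ATF4 arm can move without the chaperones. In mice, Xbp1 is needed in mammary epithelium for the secretory alveoli to form.

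Sequence upstream of the members was read because the response acts through short promoter elements. RefSeq promoters of build GRCm38.p6, from 250 bases before to 50 bases after the start, matched 33 of the 38 members, and Hyou1, Manf, Derl1, Sec61a1 and Atf6 had no entry. The ER stress response element was searched on both strands as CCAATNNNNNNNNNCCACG, where N is any base. It was present in 9 members, namely Calr, Canx, Creld2, Derl3, Dnajc3, Hsp90b1, Hspa5, Pdia6 and Syvn1, and in 0.119% of all 32851 promoter windows. The second form, ATTGGNCCACG, was present in Dnajb11 and Herpud1 and in 0.0365% of all windows. The ATF4 composite element, TGATGNAA, was present in Asns, Chac1, Herpud1 and Trib3 and in 3.97% of all windows. The XBP1-binding letters TGACGTGG were in no member window and in 0.676% of all windows. By role, 8 of the 15 chaperones with a window held at least 1 of these elements, against 3 of 5 genes of the ATF4 arm, 3 of 7 degradation genes, 0 of 4 sensors or factors and 0 of 2 translocon genes. The matched elements are shown for the members whose values are described most fully, each in the direction of the element, with the fixed letters in capitals. Hsp90b1 held 2 of them.
Pdia6: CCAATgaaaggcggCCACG
Hspa5: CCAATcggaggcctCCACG
Canx: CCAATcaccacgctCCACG
Hsp90b1 (first): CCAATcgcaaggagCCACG
Hsp90b1 (second, opposite strand): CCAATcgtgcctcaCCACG
Derl3: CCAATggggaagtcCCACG
Syvn1: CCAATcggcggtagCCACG
Asns: TGATGaAA
Chac1: TGATGcAA
Trib3: TGATGtAA

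The 250 bases upstream of 3 members are shown in full because these genes are described in several comparisons. Pdia6 was higher with EP in both luminal fractions, Hspa5, which holds the same element, was lower with EP in LP cells, and Herpud1 holds both a stress response element and an ATF4 element. Capitals mark those elements (the ATF4 element of Herpud1 lies on the opposite strand), and the stretches are chr12:17266339-17266588 (plus strand) for Pdia6, chr2:34771840-34772089 (plus strand) for Hspa5 and chr8:94386179-94386428 (plus strand) for Herpud1, all in GRCm38.p6.
Pdia6: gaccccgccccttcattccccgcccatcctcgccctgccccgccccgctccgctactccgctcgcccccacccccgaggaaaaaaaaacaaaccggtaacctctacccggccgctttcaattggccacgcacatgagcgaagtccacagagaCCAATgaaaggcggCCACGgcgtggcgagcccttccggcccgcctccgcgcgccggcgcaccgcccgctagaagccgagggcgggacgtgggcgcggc
Hspa5: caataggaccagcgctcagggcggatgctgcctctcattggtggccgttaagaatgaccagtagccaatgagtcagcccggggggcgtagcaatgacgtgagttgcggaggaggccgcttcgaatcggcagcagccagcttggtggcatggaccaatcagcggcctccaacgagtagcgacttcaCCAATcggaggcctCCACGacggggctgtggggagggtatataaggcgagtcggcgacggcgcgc
Herpud1: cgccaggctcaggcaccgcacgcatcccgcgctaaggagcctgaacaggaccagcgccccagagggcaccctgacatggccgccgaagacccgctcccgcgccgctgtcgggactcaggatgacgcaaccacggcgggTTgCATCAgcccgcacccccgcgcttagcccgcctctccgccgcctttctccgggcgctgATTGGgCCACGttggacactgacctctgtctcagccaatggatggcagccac

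The deposited table is titled as read counts, but its values are not whole and have the scale of FPKM (fragments per transcript length and sequencing depth); they are called FPKM here, after rescaling between libraries, and called differences have an adjusted p under 0.05 in limma, Benjamini-Hochberg over all genes tested. Fold changes are on the log2(value + 1) scale, which understates the change of low genes such as Derl3. The deposited values fall into 3 sets with equalised gene levels, so LM levels cannot be set against the other fractions, and whether LM libraries hold more luminal mature markers cannot be checked. In the set shared by LP and MSC, 11 of 12 basal markers were higher and 10 of 12 luminal progenitor markers lower in MSC than in LP, but 9 of 10 endothelial and 7 of 8 adipocyte markers were also higher in MSC. Among EP libraries of LM cells, mouse 311 stood apart, with a summed luminal mature marker level of 7461 against 2178 and 1873 in mice 306 and 327. In bulk libraries such as these, fewer cells of a type and less RNA per cell cannot be told apart.

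Hspa5 had the highest mean level of the 38 members in each fraction, at 492 FPKM over LM, 462 over LP and 512 over MSC libraries. The calcium-binding lectin chaperone Calr came next, at 314 FPKM in LM, 314 in LP and 316 in MSC, followed by the disulfide isomerases Pdia3 and P4hb and then Atf4. Derl3, which moves misfolded protein out of the ER, was the lowest member in every fraction, at 1.52 FPKM in LM, 1.93 in LP and 0.997 in MSC. The near equality between fractions is a property of the deposited sets and is no measurement of the cells.

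In LM cells, EP was accompanied by higher levels of folding enzymes and translocon subunits and by lower levels of the 2 transcription factors of the ATF4 arm. Of the 38 members, 11 were higher and 2 lower in EP-treated than in sham mice, which is 28.9% and 5.26% of members. Across all 11891 genes tested, 19.5% were called, 10.5% higher and 8.91% lower. The median log2 fold change was 0.67 over the 17 chaperones, 0.94 over the 3 translocon genes and 0.16 over the 8 degradation genes, against -0.01 over all genes. Over the 5 genes of the ATF4 arm it was -0.64. Chaperones were above 0 in 16 of 17 cases and called higher in 7, and no chaperone was called lower. As deposited the split was 16 higher and 2 lower, with the median of all genes at 0.14 and 1665 of all genes higher and 754 lower. Without EP mouse 327 the count of called members was 8, and without EP mouse 311 it was 15, with 9 higher and 6 lower. The ATF4 arm, with 3 called genes in either direction, had 1 without EP mouse 306 or 327. The degradation median was -0.03 without EP mouse 311, 0.10 without sham mouse 310 and 0.30 without EP mouse 306. With only these 2 groups in the fit, Sec61a1, Manf and Atf4 were not called (adjusted p = 0.0609 for Sec61a1, 0.0548 for Manf and 0.0540 for Atf4), nor was Atf4 without a filter on low values (0.0566).

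Pdia6, a disulfide isomerase, stood at 189, 233 and 217 FPKM in the EP-treated LM libraries, against 54.2, 102, 58.5 and 69.7 FPKM in the sham libraries. Every EP library was far above every sham library, and the log2 fold change was 1.61 (SE 0.24, adjusted p = 5.61e-04). Pdia4, another disulfide isomerase, stood at 108, 129.6 and 125 FPKM with EP, against 39.5, 79.8, 52.6 and 58.5 FPKM in sham, a log2 difference of 1.1 (SE 0.21, adjusted p = 0.003002), again without overlap. The prolyl isomerase Fkbp11, an enzyme of secretory cells, stood at 32.4, 67.1 and 51.8 FPKM with EP, against 29.4, 18.9, 15.6 and 14.8 FPKM in sham. Its lowest EP library, from mouse 306, was only a little above the highest sham library, from mouse 301, and the log2 fold change was 1.31 (SE 0.25, adjusted p = 0.00306). The membrane lectin Canx averaged 80.1 ± 7.89 FPKM with EP and 49.9 ± 3.45 FPKM in sham (SD, n = 3 and 4), and the ER member of the HSP90 family, Hsp90b1, averaged 161 ± 19.3 FPKM and 99.9 ± 4.998 FPKM. Both had a log2 fold change of 0.67 and did not overlap, with adjusted p = 0.00613 for Canx and 0.0112 for Hsp90b1; the second was 0.0561 without EP mouse 327. P4hb, the main disulfide isomerase, was higher by 0.97 (SE 0.24, adjusted p = 0.0116), and Manf, a secreted factor held in the ER by BiP, by 0.88 (SE 0.27, adjusted p = 0.0337). The Manf call was lost without sham mouse 305, 310 or 326 or any EP mouse, with adjusted p from 0.0508 to 0.0982.

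The chaperone best known as a readout of ER stress was not among the called members. Hspa5 stood at 337, 674 and 434 FPKM in EP-treated LM libraries, against 575, 339, 325 and 428 FPKM in sham libraries. The groups overlapped, and the log2 difference was 0.19 with a 95% interval of -0.47 to 0.84. Calr, the other abundant chaperone, differed by 0.18 (-0.29 to 0.65). Sdf2l1, a cofactor of the BiP partner Dnajb11, was at 26.3, 40.97 and 21.8 FPKM with EP, against 7.81, 28.7, 7.57 and 10.6 FPKM in sham, and the difference of 1.22 (SE 0.42, adjusted p = 0.0551) missed the threshold. In sham mouse 305 it was at the level of the EP libraries. Hyou1, which recharges BiP with nucleotide, averaged 7.26 ± 1.896 FPKM with EP and 3.36 ± 2.24 FPKM in sham (SD, n = 3 and 4), and its difference of 1.06 (SE 0.51, adjusted p = 0.154) was not called. The remaining chaperones, Dnajb11, Dnajc3, Dnajb9, Creld2, Fkbp2 and Pdia3, had log2 differences between -0.26 and 0.46, none of them called.

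**Figure D1:**
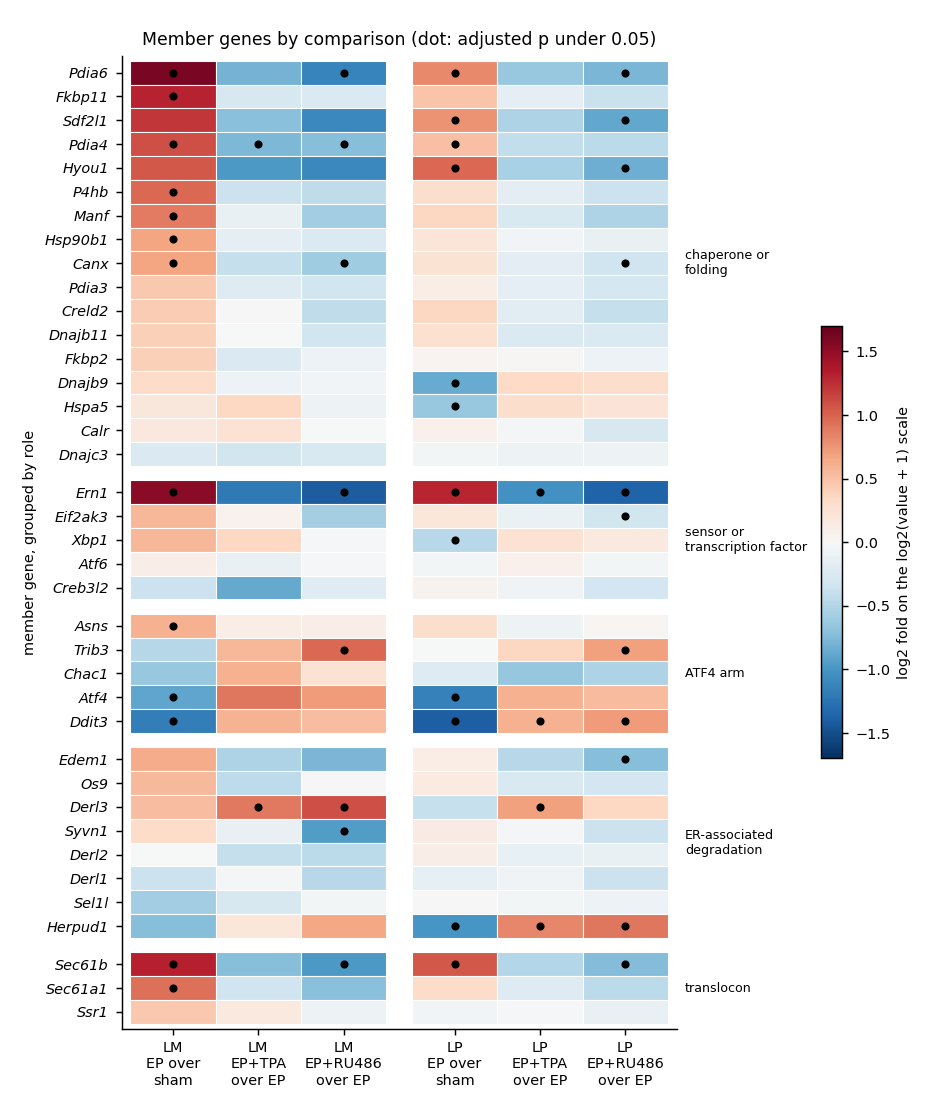
Heat map of log2 fold changes of the 38 members, grouped by role down the page, for EP over sham, EP+TPA over EP and EP+RU486 over EP in LM and in LP cells; dots mark called differences. In LM cells the chaperone rows are mostly above 0 with EP over sham and mostly below 0 in the antagonist columns, while Ddit3 and Atf4 run the other way in both fractions.

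Among the sensors and factors, Ern1 was the member that rose in LM cells. It stood at 6.22, 20.7 and 5.51 FPKM with EP, against 3.78, 1.83, 2.33 and 2.18 FPKM in sham, a log2 difference of 1.54 (SE 0.33, adjusted p = 0.00581). The EP libraries were all above the sham libraries, and mouse 311 was far above the other EP mice. Xbp1 averaged 133 ± 33.1 FPKM with EP and 88.7 ± 15.5 FPKM in sham (SD, n = 3 and 4), a difference of 0.56 (SE 0.23, adjusted p = 0.0931) that was not called. The sensor genes Eif2ak3 and Atf6 differed by 0.56 and 0.11, and Creb3l2, an ER-tethered transcription factor, by -0.36, none called. These are gene levels, and neither splicing of Xbp1 nor phosphorylation of the sensors was measured.

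In the translocon, the channel through which new chains enter the ER, Sec61b stood at 175, 241 and 214 FPKM in EP-treated LM libraries, against 80.1, 100.2, 81.2 and 71.7 FPKM in sham libraries. The groups were well separated, by 1.32 (SE 0.20, adjusted p = 7.04e-04) on the log2 scale. The pore subunit Sec61a1 was also higher, by 0.94 (SE 0.26, adjusted p = 0.0216), with overlapping groups; the call was lost without sham mouse 305 or 310 or EP mouse 311 or 327 (adjusted p from 0.0526 to 0.0808). Ssr1, a translocon-associated subunit, differed by 0.46 (SE 0.21, adjusted p = 0.144) and was not called. None of the 8 degradation genes was called: Sel1l, the adaptor of the HRD1 ligase, came nearest at -0.59 (SE 0.21, adjusted p = 0.0544), with lower values under EP, and Herpud1, a membrane scaffold of the same ligase, differed by -0.73 (SE 0.35, adjusted p = 0.155). The ligase itself, Syvn1, the mannose-recognising Edem1 and Os9, and the Derl genes lay between -0.36 and 0.63. The absence of calls depended on the libraries and settings. Without EP mouse 311, 3 degradation genes were called lower, and without sham mouse 305, 1 was. With library weights 3 were called lower and 1 higher. As deposited, or with a pseudocount of 0.1, 1 was called higher.

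The ATF4 arm split in LM cells. Ddit3 stood at 6.08, 11.02 and 12.5 FPKM with EP, against 24.5, 24.3, 21.1 and 21.4 FPKM in sham, and Atf4 at 89.3, 122 and 83.8 FPKM with EP, against 293, 153, 165 and 143 FPKM in sham. Both fell without overlap, Ddit3 by 1.18 on the log2 scale (SE 0.28, adjusted p = 0.00861) and Atf4 by 0.89 (SE 0.28, adjusted p = 0.0386). The Ddit3 call rested on EP mouse 306 (adjusted p = 0.0570 without it), and the Atf4 call was lost without any of sham mice 301 and 310 and EP mice 306 and 327 (adjusted p from 0.0636 to 0.158). Asns, which makes asparagine and is a direct ATF4 target, moved the other way. It stood at 15.7, 17.2 and 16.6 FPKM with EP, against 9.91, 11.04, 8.94 and 12.1 FPKM in sham, higher in every EP library by 0.61 (SE 0.16, adjusted p = 0.0137); without EP mouse 327 the adjusted p was 0.0596. Trib3, a pseudokinase that restrains ATF4, and Chac1, which breaks down glutathione, had differences of -0.48 (SE 0.32, adjusted p = 0.305) for Trib3 and -0.64 (SE 0.56, adjusted p = 0.462) for Chac1, not called.

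Proliferation genes moved with these members. Their summed level was 103.3 to 253.4 FPKM in EP-treated LM libraries and 8.40 to 11.6 FPKM in sham libraries, and 18 of 19 tested were called higher. The summed level of 10 plasma cell markers, a secretory cell type rich in these chaperones, was 2.56 to 8.99 FPKM with EP and 3.33 to 11.7 FPKM in sham. Milk protein genes summed to 1806 to 1974 FPKM with EP and 3118 to 5586 FPKM in sham, and 4 of 10 tested were called lower. Basal markers summed to 778 to 921 FPKM with EP and 969 to 1413 FPKM in sham, without overlap, with 1 of 12 called higher and 1 lower. Luminal mature markers summed to 1873 to 7461 FPKM with EP and 5895 to 7306 FPKM in sham. Only EP mouse 311, described above as standing apart, reached the sham range. Luminal progenitor markers summed to 1851 to 5508 FPKM with EP and 4745 to 7606 FPKM in sham. The part of these lists in the members' values was not tested.

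In LP cells, EP was accompanied by lower Ddit3, Atf4, Herpud1 and Dnajb9 and by higher Ern1, Sec61b, Pdia6 and Hyou1. Of the 38 members 6 were higher and 6 lower, 31.6% in all, against 32.3% of all 11391 genes (15.8% higher and 16.5% lower), so the count is near the background. As deposited, without rescaling, the split was 21 higher and 4 lower, while the median of all genes shifted by 0.25 on the log2 scale. Of all genes, 3945 were higher and 949 lower as deposited. The chaperones had a median of 0.27, with 4 higher and 2 lower, and the ATF4 arm a median of -0.22, with 2 lower and none higher. The median of all genes was near 0 after rescaling. Leaving out single libraries gave 9 to 13 called members, and without sham mouse 326 the called chaperones numbered 3, against 6. The chaperone median was 0.15 without EP mouse 327. The ATF4 arm median was -0.07 without EP mouse 306, -0.46 without EP mouse 322 and -0.01 as deposited. With only these 2 groups in the fit, Pdia6 (adjusted p = 0.0522), Sdf2l1 (0.0652), Xbp1 (0.0813) and Pdia4 (0.130) were not called, and without a filter on low values Pdia4 was not (0.0615).

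Ddit3 showed the firmest difference of the group in LP cells. It stood at 6.701, 9.61, 9.34 and 8.05 FPKM with EP, against 21.95, 30.6, 21.2 and 22.1 FPKM in sham, a fall of 1.4 on the log2 scale (SE 0.17, adjusted p = 1.61e-05). Atf4 stood at 90.7, 133, 129.6 and 69.6 FPKM with EP, against 253, 198, 267 and 204 FPKM in sham, a fall of 1.15 (SE 0.21, adjusted p = 8.29e-04). No EP library of either gene reached the sham range, and both calls held without any single library. Asns stood at 13.5, 15.6, 19.1 and 10.4 FPKM with EP, against 13.02, 10.1, 11.98 and 11.01 FPKM in sham, a difference of 0.30 (SE 0.14, adjusted p = 0.126) that was not called; without EP mouse 327 its adjusted p was 0.0147. Trib3 differed by -0.01 (SE 0.22, adjusted p = 0.976) in LP and Chac1 by -0.22 (SE 0.25, adjusted p = 0.529), with overlapping groups. The called members of the ATF4 arm in LP cells were thus its transcription factors, and the enzymes and the pseudokinase downstream were not called.

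The chaperones of LP cells moved in both directions. Hspa5 stood at 325, 369, 379 and 395 FPKM with EP, against 683, 524, 512 and 589.5 FPKM in sham. All EP libraries were below all sham libraries, by 0.65 on the log2 scale (SE 0.21, adjusted p = 0.0263). The call was lost without sham mouse 301 (adjusted p = 0.0761) or 326 (0.0573) or EP mouse 306 (0.0763), and as deposited the difference was -0.34 (adjusted p = 0.154). Dnajb9, a cochaperone that hands BiP to IRE1, stood at 14.3, 18.03, 12.96 and 17.5 FPKM with EP, against 26.03, 26.2, 31.7 and 32.7 FPKM in sham, a log2 difference of -0.86 (SE 0.15, adjusted p = 4.47e-04). Pdia6 went up, at 178, 102, 196 and 288 FPKM with EP, against 106, 110.4, 94.9 and 92.5 FPKM in sham, with a log2 difference of 0.82 (SE 0.22, adjusted p = 0.00865). EP mouse 311 lay within the sham range of Pdia6, and the other EP mice lay above it. Hyou1 averaged 7.58 ± 3.41 FPKM with EP and 3.11 ± 0.391 FPKM in sham (SD, n = 4 each), a difference of 0.97 (SE 0.27, adjusted p = 0.01097) without overlap. Sdf2l1 and Pdia4 were higher by 0.77 (SE 0.24, adjusted p = 0.0207) in the first case and 0.51 (SE 0.18, adjusted p = 0.0416) in the second, both with overlapping groups. The Sdf2l1 call was lost without sham mouse 310 or 326 or EP mouse 322 or 327 (adjusted p from 0.0596 to 0.0688), and the Pdia4 call without any library but EP mouse 311 (0.0563 to 0.127). The other 11 chaperones and folding enzymes lay between -0.04 and 0.49 and were not called, among them Fkbp11 at 0.49 (SE 0.20, adjusted p = 0.0721).

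Ern1 stood at 8.12, 4.75, 8.52 and 17 FPKM in EP-treated LP libraries, against 2.46, 3.57, 3.18 and 2.71 FPKM in sham libraries, a log2 difference of 1.3 (SE 0.26, adjusted p = 0.00149). The EP libraries were spread widely, and all were above sham. Xbp1, the target of IRE1 splicing, stood at 98.5, 143, 121 and 97.2 FPKM with EP, against 136, 167, 197 and 138 FPKM in sham, and was lower by 0.47 (SE 0.16, adjusted p = 0.0339), with EP mouse 311 inside the sham range. The Xbp1 call was lost without EP mouse 306 or 327 or sham mouse 305 or 310 (adjusted p from 0.0733 to 0.119), and as deposited the difference was -0.16 (adjusted p = 0.423). Sec61b was at 176, 99.6, 207 and 215 FPKM with EP, against 90.1, 76.01, 82.1 and 73.3 FPKM in sham, higher by 1.05 (SE 0.21, adjusted p = 0.00121). The sensors Eif2ak3 and Atf6, the factor Creb3l2 and the translocon genes Sec61a1 and Ssr1 lay between -0.06 and 0.32, none called. Herpud1 was at 17.1, 31.1, 21.8 and 35.6 FPKM with EP, against 36.1, 58.4, 54.2 and 62.01 FPKM in sham, lower by 1.0 (SE 0.25, adjusted p = 0.00643) without overlap. The other 7 degradation genes lay between -0.39 and 0.15 and were not called. All 19 proliferation genes tested were higher in EP-treated LP cells, with summed levels of 137.4 to 242.8 FPKM against 23.3 to 26.3 FPKM in sham, and 9 of 12 luminal progenitor markers were lower. Milk protein genes summed to 1185 to 3163 FPKM with EP and 6205 to 8589 FPKM in sham, without overlap, and 5 of 10 tested were lower. Their part in the members' values was not tested.

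**Figure D2:**
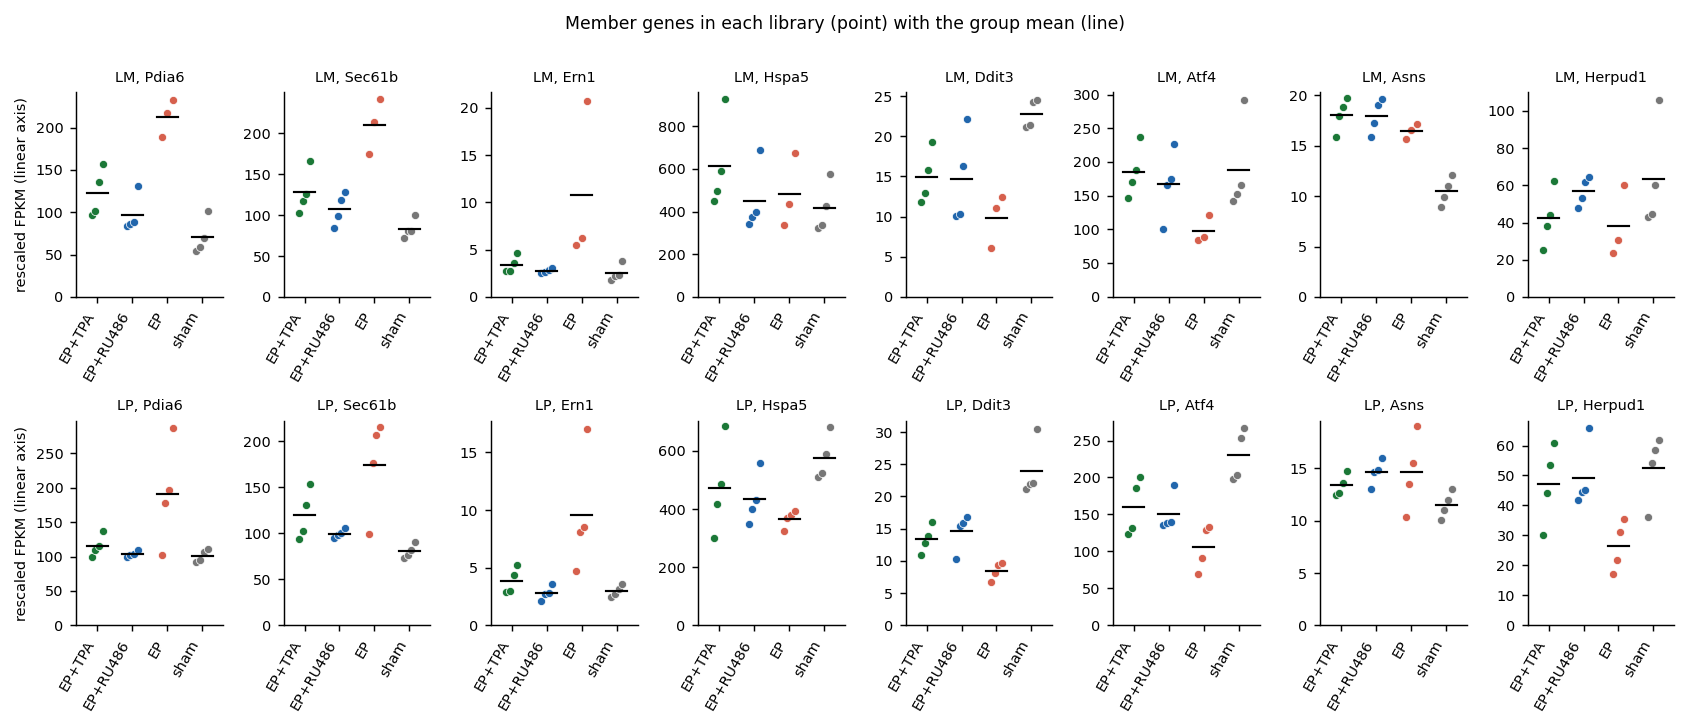
Rescaled FPKM by library for 8 members in LM cells (upper row) and LP cells (lower row), with treatments from left to right EP+TPA, EP+RU486, EP and sham; each point is 1 mouse and the axes are linear. By group mean, Pdia6, Sec61b and Ern1 are highest with EP, and Ddit3 and Atf4 are lowest there. Single libraries overlap between treatments, as for Pdia6 and Ern1 in LP and for Atf4 in both fractions. Ern1 of EP mouse 311 in LM, at 20.7 FPKM, is the farthest point.

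Adding RU486 to EP in LM cells was accompanied by lower Pdia4, Pdia6, Sec61b, Ern1, Canx and Syvn1 and by higher Derl3 and Trib3. With EP+TPA only lower Pdia4 and higher Derl3 were called, and both calls depended on single libraries. With EP+TPA, 1 member was higher and 1 lower than with EP, 5.26% of members, against 4.34% of all genes (1.25% higher and 3.09% lower), so the count is near the background. With EP+RU486, 2 members were higher and 6 lower, 21.1% of members, against 17.8% of all genes (7.99% higher and 9.82% lower). As deposited, the splits were 1 higher and 6 lower for EP+TPA and 1 higher and 11 lower for EP+RU486, while the median of all genes shifted by -0.13 for EP+TPA and -0.17 for EP+RU486. Of all genes as deposited, 167 were higher and 621 lower for EP+TPA, and 731 higher and 1685 lower for EP+RU486. Both comparisons use the same 3 EP libraries, so they are not independent. Without EP mouse 311 the EP+RU486 count was 5. The EP+TPA count fell to 0 without EP mouse 306 or 311 or TPA mouse 328 or 336 and to 1 without TPA mouse 312, and it reached 6 without TPA mouse 332, whose summed proliferation level of 189 FPKM was the highest of its group.

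Chaperone medians were -0.24 with EP+TPA and -0.33 with EP+RU486, each over EP, and 0 of 17 chaperones were above 0 with EP+RU486. Without EP mouse 311 the EP+TPA median was -0.06, and without EP mouse 306 the EP+RU486 median was -0.53. With only EP+TPA and EP in the fit, or with a pseudocount of 0.1, neither Pdia4 nor Derl3 was called for EP+TPA, and without a filter on low values Pdia4 was not. Pdia6 stood at 101, 97.3, 157 and 136 FPKM with EP+TPA and 86.3, 131, 83.3 and 88.4 FPKM with EP+RU486, against 189, 233 and 217 FPKM with EP. No antagonist library reached the EP range. The log2 difference from EP was -0.81 (SE 0.24, adjusted p = 0.0593) with EP+TPA, which missed the threshold, and -1.14 (SE 0.24, adjusted p = 0.00549) with EP+RU486. Sec61b was at 117, 102, 167 and 126 FPKM with EP+TPA and 83.9, 128, 118 and 98.9 FPKM with EP+RU486, against 175, 241 and 214 FPKM with EP. Its differences were -0.72 (SE 0.20, adjusted p = 0.0524) with EP+TPA and -0.97 (SE 0.20, adjusted p = 0.00555) with EP+RU486. Pdia4 was lower by 0.77 with EP+TPA (adjusted p = 0.0498) and by 0.73 with EP+RU486 (adjusted p = 0.0273). The EP+TPA call of Pdia4 was lost without any library but TPA mouse 332, and the EP+RU486 call without RU486 mouse 329 or 333 or EP mouse 311 or 327, with adjusted p from 0.0718 to 0.0818. Canx fell by 0.60 (SE 0.15, adjusted p = 0.0119) with EP+RU486.

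Ern1 stood at 4.59, 2.696, 3.59 and 2.75 FPKM with EP+TPA and 2.601, 2.83, 2.56 and 3.08 FPKM with EP+RU486, against 6.22, 20.7 and 5.51 FPKM with EP. The antagonist libraries lay close together and below every EP library, with log2 differences of -1.21 (SE 0.33, adjusted p = 0.0503) for EP+TPA and -1.42 (SE 0.33, adjusted p = 0.00974) for EP+RU486. With EP+RU486, Syvn1 fell by 0.95 (SE 0.24, adjusted p = 0.0139); without EP mouse 311 the adjusted p was 0.0639. Derl3 was higher with both antagonists, at 2.598, 2.47, 1.21 and 2.76 FPKM with EP+TPA and 1.997, 2.98, 2.68 and 3.07 FPKM with EP+RU486, against 0.526, 0.493 and 1.24 FPKM with EP. The log2 differences were 0.89 (SE 0.22, adjusted p = 0.0367) with EP+TPA and 1.09 (SE 0.22, adjusted p = 0.00551) with EP+RU486, and TPA mouse 332 was the lowest of its group, below the highest EP library. The EP+TPA call of Derl3 was lost without EP mouse 306 or 311 or TPA mouse 312, 328 or 336, with adjusted p from 0.0920 to 0.113.

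The 5 genes of the ATF4 arm were all above 0 in both antagonist comparisons of LM cells, with medians of 0.59 for EP+TPA and 0.52 for EP+RU486, but only Trib3 with EP+RU486 was called. Without EP mouse 306 the medians were 0.35 for EP+TPA and 0.23 for EP+RU486, and without RU486 mouse 333 the EP+RU486 median was 0.31. Trib3 averaged 5.95 ± 1.36 FPKM with EP+RU486 and 2.56 ± 0.885 FPKM with EP (SD, n = 4 and 3), a difference of 0.98 (SE 0.32, adjusted p = 0.0429) that was lost without any single library of the 7, with adjusted p from 0.0502 to 0.164, as deposited (0.0725) and without a filter on low values (0.0623). With library weights, Atf4 was called in both comparisons and Ddit3 for EP+TPA. Atf4 was at 188, 170, 147 and 237 FPKM with EP+TPA and 167, 101, 175 and 226 FPKM with EP+RU486, against 89.3, 122 and 83.8 FPKM with EP. The EP+TPA libraries were all above the EP libraries, and RU486 mouse 313 overlapped with EP. The differences were 0.91 (SE 0.28, adjusted p = 0.0765) with EP+TPA and 0.72 (SE 0.28, adjusted p = 0.0865) with EP+RU486; the first was called without TPA mouse 332 (adjusted p = 0.0273) and the second without RU486 mouse 313 (adjusted p = 0.0341). Ddit3 differed by 0.59 (SE 0.28, adjusted p = 0.226) with EP+TPA and 0.52 (SE 0.28, adjusted p = 0.199) with EP+RU486. Asns, higher with EP than in sham, had differences from EP of 0.12 (SE 0.16, adjusted p = 0.677) for EP+TPA and 0.11 (SE 0.16, adjusted p = 0.639) for EP+RU486, not called. Chac1 differed by 0.61 (SE 0.56, adjusted p = 0.551) for EP+TPA and 0.26 (SE 0.56, adjusted p = 0.772) for EP+RU486, with wide error.

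Other lists moved in the same libraries. The summed proliferation level was 32.6 to 189 FPKM with EP+TPA and 24.8 to 61.6 FPKM with EP+RU486, against 103.3 to 253.4 FPKM with EP, and 19 proliferation genes were called lower with EP+RU486 and 0 with EP+TPA. The summed luminal mature marker level was 1486 to 5826 FPKM with EP+TPA and 211 to 1897 FPKM with EP+RU486, against 1873 to 7461 FPKM with EP, and 6 of 12 markers were called lower with EP+TPA and 8 of 12 with EP+RU486. Milk protein genes summed to 1802 to 8354 FPKM with EP+TPA and 7768 to 14790 FPKM with EP+RU486, against 1806 to 1974 FPKM with EP, and 2 of 10 were called higher with EP+TPA and 5 with EP+RU486. Basal markers summed to 936 to 1280 FPKM with EP+TPA and 1175 to 1970 FPKM with EP+RU486, against 778 to 921 FPKM with EP, with 0 of 12 called for EP+TPA and 1 called higher for EP+RU486. The part of these lists in the members' values was not tested.

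In LP cells the antagonists were accompanied by lower Ern1 and higher Ddit3 and Herpud1 than EP alone. With EP+TPA, 3 members were higher and 1 lower, 10.5% of members, against 18.3% of all genes (7.93% higher and 10.3% lower). With EP+RU486, 3 members were higher and 8 lower, 28.9% of members, against 20.8% of all genes (9.06% higher and 11.7% lower). As deposited, the splits were 0 higher and 9 lower for EP+TPA and 2 higher and 13 lower for EP+RU486, while the median of all genes shifted by -0.14 for EP+TPA and -0.11 for EP+RU486. Of all genes as deposited, 540 were higher and 2172 lower for EP+TPA, and 723 higher and 1963 lower for EP+RU486. The same 4 EP libraries served both comparisons. The EP+RU486 count was 3 without EP mouse 322, 5 without RU486 mouse 329, 7 without RU486 mouse 308 or EP mouse 327, and 16 without EP mouse 311. The EP+TPA count was 1 without EP mouse 306, 2 without TPA mouse 312 or 323, and 11 without EP mouse 311, with 4 higher and 7 lower.

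Ern1 stood at 4.39, 2.97, 2.87 and 5.27 FPKM with EP+TPA and 2.79, 3.56, 2.73 and 2.12 FPKM with EP+RU486, against 8.12, 4.75, 8.52 and 17 FPKM with EP. Every RU486 library was below every EP library, and TPA mouse 336 was above the lowest EP library. The log2 differences were -1.03 (SE 0.26, adjusted p = 0.0118) with EP+TPA and -1.37 (SE 0.26, adjusted p = 0.00184) with EP+RU486. With only EP+TPA and EP in the fit the adjusted p of Ern1 was 0.0837; Herpud1 (0.0964) and Derl3 (0.0941) were not called for EP+TPA in that fit either. With only EP+RU486 and EP in the fit, Pdia6, Sec61b, Edem1, Trib3, Eif2ak3, Hyou1 and Canx were not called (adjusted p from 0.0553 to 0.112). Pdia6 was at 109, 116, 99.3 and 137 FPKM with EP+TPA and 102, 104, 99.1 and 109.5 FPKM with EP+RU486, against 178, 102, 196 and 288 FPKM with EP. The differences were -0.64 (SE 0.22, adjusted p = 0.0513) for EP+TPA and -0.78 (SE 0.22, adjusted p = 0.0174) for EP+RU486, both with EP mouse 311 among the antagonist libraries. The other chaperones lower with EP+RU486 were Sdf2l1 at -0.88 (SE 0.24, adjusted p = 0.015), Hyou1 and Canx; the last 2 calls were lost without any of 6 single libraries for Hyou1 and 7 for Canx (adjusted p from 0.0509 to 0.142). Sec61b was lower by 0.74 and Edem1 by 0.73 with EP+RU486, with adjusted p of 0.0178 and 0.0242, and Eif2ak3 by 0.33, a call lost without any RU486 mouse or EP mouse 311 or 322. Without EP mouse 322 the adjusted p was 0.0511 for Pdia6, 0.0516 for Sdf2l1, 0.0631 for Sec61b and 0.0506 for Edem1. The Sec61b call was also lost without EP mouse 327 (0.0574), and the Edem1 call without EP mouse 327 (0.0781) or RU486 mouse 308 (0.0735) or 329 (0.0713). Hspa5, low with EP in these cells, differed from EP by 0.30 (SE 0.21, adjusted p = 0.366) with EP+TPA and 0.23 (SE 0.21, adjusted p = 0.486) with EP+RU486, neither called.

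Ddit3 stood at 12.8, 16.1, 13.8 and 10.9 FPKM with EP+TPA and 16.8, 10.3, 15.9 and 15.5 FPKM with EP+RU486, against 6.701, 9.61, 9.34 and 8.05 FPKM with EP. All antagonist libraries were above all EP libraries, by 0.61 (SE 0.17, adjusted p = 0.0169) with EP+TPA and 0.72 (SE 0.17, adjusted p = 0.00607) with EP+RU486. The EP+TPA call was lost without EP mouse 306 (adjusted p = 0.0669) or TPA mouse 323 (0.0590), and as deposited (0.0652). Atf4 was at 131, 186, 124 and 200 FPKM with EP+TPA and 140, 135, 189.8 and 139 FPKM with EP+RU486, against 90.7, 133, 129.6 and 69.6 FPKM with EP. Its differences of 0.61 (SE 0.21, adjusted p = 0.0593) for EP+TPA and 0.54 (SE 0.21, adjusted p = 0.0865) for EP+RU486 missed the threshold, and both were called without EP mouse 311 (0.0225 for EP+TPA and 0.0346 for EP+RU486). For EP+TPA the Atf4 difference was also called without EP mouse 322 (0.0483) or TPA mouse 328 (0.0446). Trib3 was at 7.26, 4.699, 4.07 and 6.26 FPKM with EP+RU486, against 1.65, 2.66, 4.74 and 3.53 FPKM with EP, higher by 0.70 (SE 0.22, adjusted p = 0.0308); the call was lost without RU486 mouse 304 or 329 or EP mouse 306 or 311, and as deposited (0.0536). Asns and Chac1 were not called in either comparison, with Asns at -0.09 for EP+TPA and 0.03 for EP+RU486 and Chac1 at -0.66 and -0.53.

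Herpud1 was at 44.1, 53.6, 60.9 and 30.3 FPKM with EP+TPA and 44.5, 45.1, 41.8 and 65.8 FPKM with EP+RU486, against 17.1, 31.1, 21.8 and 35.6 FPKM with EP. It was higher by 0.83 (SE 0.25, adjusted p = 0.03098) with EP+TPA and by 0.91 (SE 0.25, adjusted p = 0.01703) with EP+RU486, and the RU486 libraries did not overlap with EP. The EP+RU486 call was lost without EP mouse 306 (adjusted p = 0.0631) or 322 (0.0540) or RU486 mouse 329 (0.0591), and the EP+TPA call without EP mouse 306 or 322 or TPA mouse 312, 323 or 328 (0.0592 to 0.113), as deposited (0.0976) and without a filter on low values (0.0511). Derl3 was higher with EP+TPA by 0.70 (SE 0.21, adjusted p = 0.03103), a call lost without EP mouse 306, 322 or 327 or TPA mouse 312, 328 or 336 (0.0592 to 0.0978) and as deposited (0.0593). All 19 proliferation genes tested were lower than with EP in both antagonist groups, with summed levels of 32.7 to 39.9 FPKM with EP+TPA and 44.8 to 57.6 FPKM with EP+RU486, against 137.4 to 242.8 FPKM with EP. Luminal mature markers in LP cells were lower too, 8 of 12 with EP+TPA and 9 of 12 with EP+RU486. Milk protein genes summed to 5494 to 7086 FPKM with EP+TPA and 5091 to 6749 FPKM with EP+RU486, against 1185 to 3163 FPKM with EP, with 5 of 10 called higher and 1 lower for EP+TPA and 5 higher and 3 lower for EP+RU486. Their part in the members' values was not tested.

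**Figure D3:**
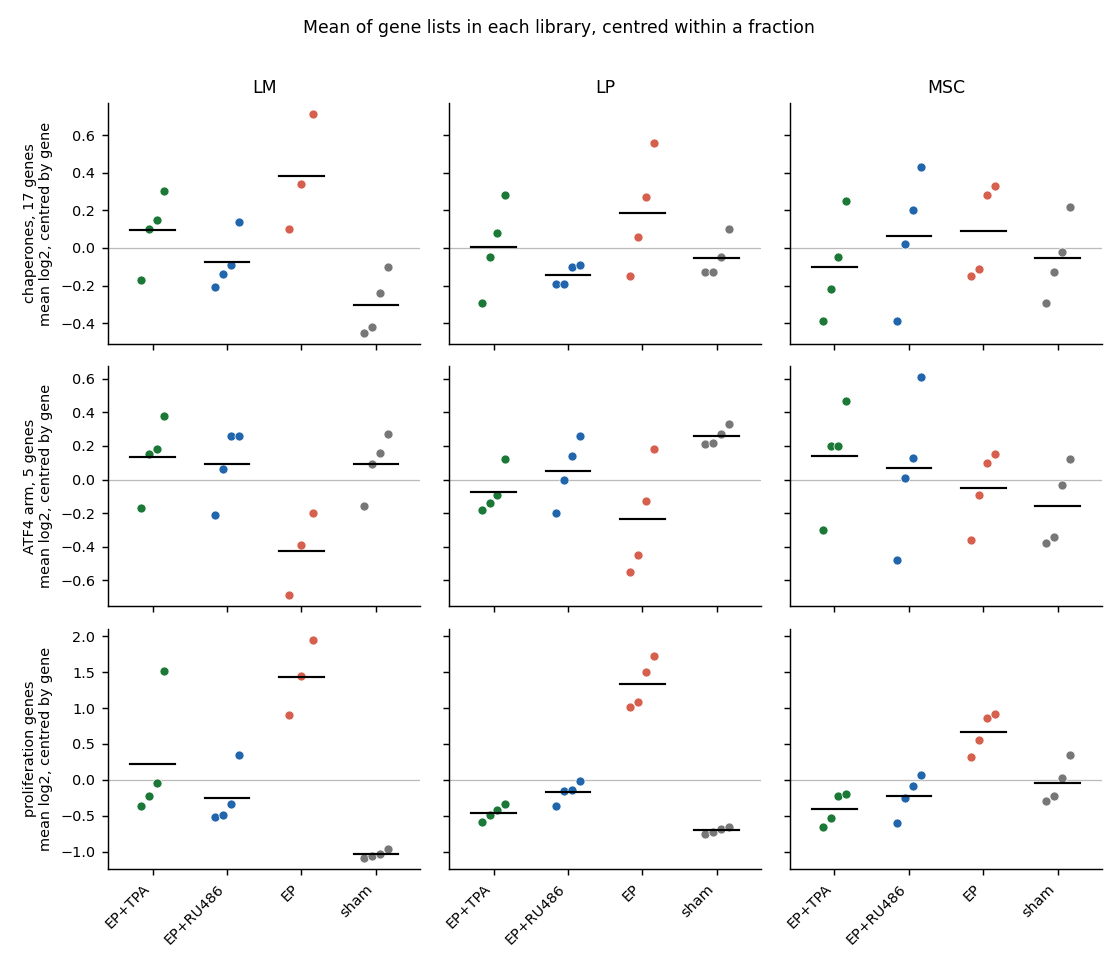
Mean centred log2 value by library of the 17 chaperones, the 5 genes of the ATF4 arm and the proliferation genes, in LM, LP and MSC, with treatments from left to right EP+TPA, EP+RU486, EP and sham; each point is 1 mouse. In LM the chaperone mean is highest with EP, at a group mean of 0.38 against -0.30 in sham, and the ATF4 arm is lowest there, at -0.43 against 0.09 in sham.

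The antagonists were given for the same time, but their doses are not in the labels, so their direct comparison may not be at matched doses. Of the 38 members, 0 were called between EP+TPA and EP+RU486 in LM, LP or MSC cells with limma, and 0% of all genes were called in each fraction. At an unadjusted p under 0.05, 5 of 38 members and 1602 of 11891 genes differed in LM, so the share of members is near that of all genes. In LP 0 members and 197 of 11391 genes differed, and in MSC 0 members and 194 of 12169 genes. The largest of these in LM was Syvn1, which averaged 14.2 ± 3.23 FPKM with EP+TPA and 7.57 ± 1.94 FPKM with EP+RU486 (SD, n = 4 each), a log2 difference of 0.83 (SE 0.22, adjusted p = 0.318) without overlap. Of all genes tested, 4.02% were higher without overlap in this comparison. In LM cells the 95% interval of the difference, EP+TPA over EP+RU486, was -0.13 to 0.79 for Pdia6, -0.17 to 1.05 for Hspa5 and -0.44 to 0.86 for Ern1. For the ATF4 arm it was -0.37 to 0.74 for Atf4 and -0.47 to 0.61 for Ddit3. In LP cells the intervals were -0.32 to 0.60 for Pdia6, -0.37 to 0.52 for Hspa5, -0.21 to 0.90 for Ern1, -0.39 to 0.52 for Atf4 and -0.46 to 0.25 for Ddit3. All of these intervals contain 0, and none is narrow enough to show that the compounds act alike.

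Set against sham, both antagonist groups had higher Derl3, Fkbp11 and Asns and lower Sel1l in LM cells and lower Ddit3 in LP cells. Of the chaperones in LM, Fkbp11 alone was called with EP+RU486, and Fkbp11, Pdia6 and Hsp90b1 with EP+TPA. In LM, EP+TPA had 8 members higher and 2 lower than sham, 26.3% of members, against 16% of all genes (7.01% higher and 9.02% lower). EP+RU486 had 3 higher and 2 lower in LM, 13.2% of members, against 21.4% of all genes (9.42% higher and 12% lower). In LP, EP+TPA had 0 higher and 2 lower, 5.26% of members, against 5.06% of all genes (1.76% higher and 3.3% lower), so the count is near the background. EP+RU486 had 0 higher and 3 lower in LP, 7.89% of members, against 10.4% of all genes (3.98% higher and 6.44% lower). As deposited, the splits in LP were 1 higher and 1 lower for EP+TPA and 2 higher and 0 lower for EP+RU486, and in LM 5 higher and 2 lower for EP+RU486. Of all genes as deposited, 443 were higher and 243 lower for EP+TPA in LP, and 1315 and 429 for EP+RU486. In LM they were 995 and 1271 for EP+RU486. The LM count for EP+TPA was 6 without sham mouse 310 or 326 or TPA mouse 332 or 336, and that for EP+RU486 was 9 without sham mouse 305. In LP, the EP+RU486 count was 0 without RU486 mouse 308 and 1 without sham mouse 310 or 326, and the EP+TPA count was 1 without any of 7 of the 8 libraries. All of these comparisons share the sham libraries with EP against sham. Luminal mature markers in LM cells summed to 1486 to 5826 FPKM with EP+TPA and 211 to 1897 FPKM with EP+RU486, against 5895 to 7306 FPKM in sham, without overlap, and 8 of 12 were called lower with EP+TPA and 11 of 12 with EP+RU486. In LP cells they summed to 2338 to 4999 FPKM with EP+TPA and 2076 to 3386 FPKM with EP+RU486, against 5068 to 9129 FPKM in sham, and 4 of 12 were lower with EP+TPA and 6 of 12 with EP+RU486. Of 19 proliferation genes tested, 11 were called higher with EP+TPA and 5 with EP+RU486 in LM, and 0 with EP+TPA and 7 with EP+RU486 in LP. The part of these lists in the members' values was not tested.

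Derl3 showed the largest of these differences in LM cells. It stood at 2.598, 2.47, 1.21 and 2.76 FPKM with EP+TPA and 1.997, 2.98, 2.68 and 3.07 FPKM with EP+RU486, against 0.235, 0.474, 0 and 0.108 FPKM in sham, where mouse 310 was listed at 0. The log2 differences were 1.42 (SE 0.21, adjusted p = 3.10e-04) with EP+TPA and 1.62 (SE 0.21, adjusted p = 9.28e-05) with EP+RU486. Fkbp11 stood at 42.4, 37.9, 37.6 and 39.1 FPKM with EP+TPA and 40.7, 51.6, 37.3 and 34.5 FPKM with EP+RU486, all above the sham libraries, with differences of 1.01 (SE 0.23, adjusted p = 0.00832) for EP+TPA and 1.06 (SE 0.23, adjusted p = 0.00488) for EP+RU486. Asns was likewise above sham in all antagonist libraries, at 15.9, 18.8, 19.8 and 17.9 FPKM with EP+TPA and 19.1, 19.7, 15.9 and 17.2 FPKM with EP+RU486. Its differences from sham were 0.74 (SE 0.14, adjusted p = 0.00279) with EP+TPA and 0.72 (SE 0.14, adjusted p = 0.00254) with EP+RU486. Xbp1 was higher with EP+TPA by 0.91 (SE 0.21, adjusted p = 0.00834), as were Pdia6, Hsp90b1, Sec61b and Ssr1, by 0.52 to 0.80; the Pdia6, Hsp90b1 and Ssr1 calls were each lost when any of 5 single libraries was left out, and the Sec61b call when any of 6 was. With only EP+TPA and sham in the fit none of these 4 was called (adjusted p from 0.0609 to 0.109), and without a filter on low values Sec61b and Ssr1 were not. With EP+TPA, Creb3l2 fell by 1.23 (SE 0.24, adjusted p = 0.00247), Sel1l was lower in both antagonist groups, by 0.88 with EP+TPA and 0.63 with EP+RU486, and Derl1 was lower with EP+RU486 by 0.83. The EP+RU486 call of Sel1l was lost without RU486 mouse 308, 313, 329 or 333 or sham mouse 310 or 326. Atf4 was not called against sham, at 0.02 (SE 0.26, adjusted p = 0.973) with EP+TPA and -0.17 (SE 0.26, adjusted p = 0.687) with EP+RU486. Ddit3 differed from sham by -0.60 (SE 0.25, adjusted p = 0.124) with EP+TPA and -0.67 (SE 0.25, adjusted p = 0.07301) with EP+RU486, and Trib3 by 0.09 and 0.50; without RU486 mouse 333 the Ddit3 adjusted p was 0.0261, and without sham mouse 305 that of Trib3 was 0.0420. Chac1 differed by -0.03 and -0.38, not called.

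In LP cells Ddit3 remained below sham with both antagonists, by 0.79 on the log2 scale with EP+TPA (SE 0.17, adjusted p = 0.0103) and by 0.68 with EP+RU486 (SE 0.17, adjusted p = 0.0161). The second call was lost without RU486 mouse 308 (adjusted p = 0.0548) and as deposited (0.0611). Chac1 was lower with EP+TPA by 0.89 (SE 0.25, adjusted p = 0.0497), a call lost without any single library of the 8, with adjusted p from 0.0605 to 0.147, and also as deposited, with a pseudocount of 0.1 or without a filter on low values (0.0516 to 0.0879). Dnajb9 and Derl1 were lower with EP+RU486, by 0.55 and 0.52, with adjusted p of 0.0262 and 0.0365. The first was lost without RU486 mouse 304 or 308 or sham mouse 310 or 326, the second without sham mouse 301, 310 or 326 or RU486 mouse 308 or 324, and both as deposited (0.122 for Dnajb9 and 0.119 for Derl1). Atf4 differed by -0.54 (SE 0.21, adjusted p = 0.178) with EP+TPA and -0.61 (SE 0.21, adjusted p = 0.0828) with EP+RU486, Asns by 0.20 and 0.32, and Trib3 by 0.36 and 0.68, none called. Chac1 with EP+RU486 differed by -0.76 (SE 0.25, adjusted p = 0.0631); without RU486 mouse 304 the adjusted p was 0.0324. With only EP+RU486 and sham in the fit, or with library weights, Atf4, Trib3 and Chac1 were called for EP+RU486.

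In MSC no member was called between any of the treatments when libraries had equal weight. With limma and the value set as a term, 0% of 12169 genes passed in each of the 6 comparisons. At an unadjusted p under 0.05 there were 2 of 38 members and 634 of 12169 genes for EP over sham, which are similar shares. With the same numbers tested, there was 1 member among 860 genes for EP+TPA over EP and 3 among 575 for EP+RU486 over EP. Against sham there were 2 among 414 for EP+TPA and 2 among 414 for EP+RU486. With library weights 4 members were called for EP over sham, namely Fkbp11 at 1.22 (adjusted p = 0.00157), Chac1 at 0.89 (0.0191), Sec61b at 0.74 (0.0230) and Os9 at -0.43 (0.0388), and none for the other treatments. How many of all genes were called with library weights is not given here, so this count has no background share. The MSC libraries differed widely in their makeup. The summed basal marker level was 123 to 6731 FPKM within the EP+RU486 group alone. The summed endothelial level ran from 0 in EP mouse 327 to 1768 FPKM in EP mouse 306. These sums span both value sets, whose levels cannot be compared. After centring within a set, the mean log2 basal level with EP+RU486 still ran from -3.23 to 0.65. The centred endothelial level with EP ran from -4.85 to 1.37. The part of that spread in the members' values was not tested. Chaperone medians were 0.08 for EP over sham, -0.22 for EP+TPA over EP and -0.03 for EP+RU486 over EP, and those of the ATF4 arm 0.01, 0.23 and 0.06. Leaving out single libraries moved these medians by over 1.5 times, to between 0.01 and 0.19, -0.36 and -0.06, and -0.19 and 0.13 for the chaperones. Within the value sets, the median of the 38 members for EP over sham was 0.06 in the set with 2 EP libraries and 1 sham library and 0.08 in the set with 2 and 3.

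Fkbp11 had the smallest p of the members in MSC. It stood at 47.6, 53.2, 77 and 43.7 FPKM with EP, against 20.4, 23.2, 31.1 and 19.8 FPKM in sham, with every EP library above every sham library. Of all genes tested, 0.863% were higher without overlap. The log2 difference was 1.2 (SE 0.25), with an adjusted p of 0.444 in limma. These groups pool both value sets, whose levels cannot be compared. Fkbp11 differed by 1.52 in the set with 2 EP libraries and 1 sham library, and by 0.96 in the set with 2 and 3. With the antagonists it was at 52.5, 35.7, 38.9 and 29.8 FPKM (EP+TPA) and 38.7, 36.3, 23.4 and 40.9 FPKM (EP+RU486), with group means between those of EP and sham. Chac1 was at 7.12, 5.48, 4.03 and 3.93 FPKM with EP+TPA and 9.66, 9.03, 8.27 and 3.22 FPKM with EP+RU486, against 3.53, 1.86, 0.822 and 1.43 FPKM in sham, and at 3.67, 4.63, 7.54 and 1.48 FPKM with EP. The differences from sham were 1.13 (SE 0.33, adjusted p = 0.999) with EP+TPA and 1.39 (SE 0.34, adjusted p = 0.9999) with EP+RU486, neither called. The 95% intervals of EP over sham were -0.44 to 0.98 for Ddit3, -0.45 to 0.48 for Atf4, -0.48 to 0.76 for Pdia6, -0.89 to 0.78 for Hspa5 and -1.17 to 1.71 for Ern1. The Atf4 and Ddit3 intervals leave out the values estimated in LM and LP cells, but those values carry errors of their own. The difference between fractions was not itself tested, so none is shown.

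**Figure D4:**
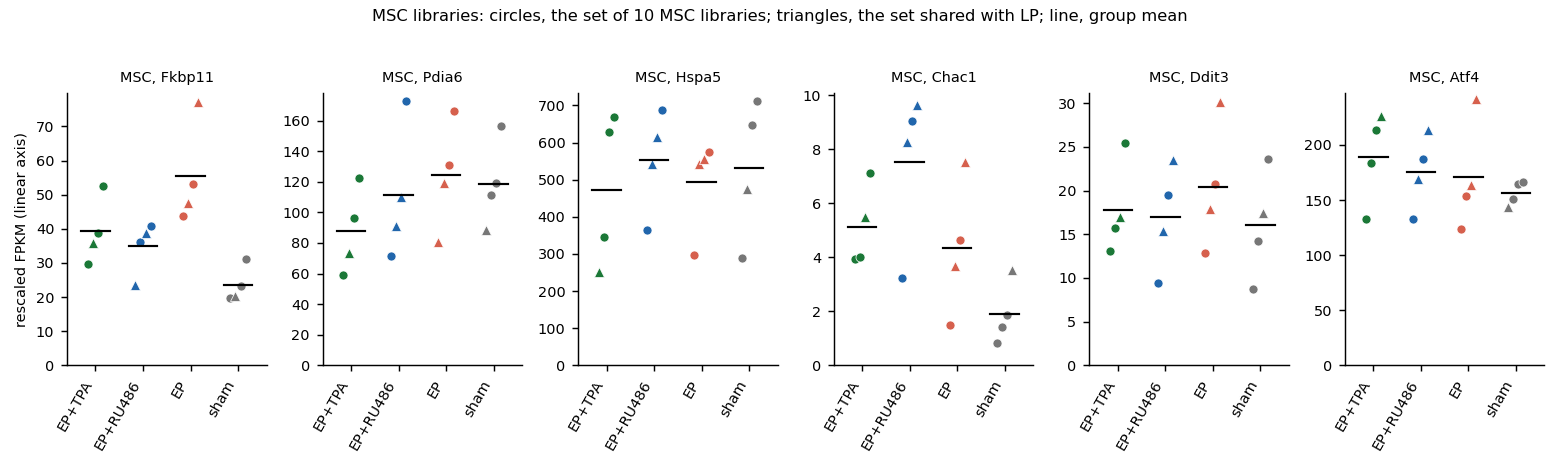
Rescaled FPKM by library of 6 members in MSC, with treatments from left to right EP+TPA, EP+RU486, EP and sham; circles are libraries of the set of 10 MSC libraries and triangles those of the set shared with LP. Fkbp11 is higher in all EP than in all sham libraries, and the groups overlap for Hspa5, Ddit3 and Atf4.

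Set against LP cells in the shared set, Chac1, Asns, Ddit3, Dnajb9 and Herpud1 were higher in MSC after rescaling, and Eif2ak3, Xbp1, Derl2, Derl3, Os9, Pdia4 and Pdia6 were lower. With 6 MSC and 16 LP libraries and treatment as a term, 5 members were higher and 7 lower in MSC, 31.6% of members, against 54.1% of all 12216 genes (28.2% higher and 25.9% lower). As deposited, the split was 1 higher and 28 lower, with the median of all genes shifted by -0.46 and 1676 of all genes higher and 7074 lower. The ATF4 arm had a median of 0.44, with all 5 genes above 0 and 3 called higher, the sensors a median of -0.23 with 2 lower (1 with the mouse block), and the chaperones a median of -0.09 with 1 higher and 2 lower. All 6 MSC mice also gave an LP library, and with the mouse as a block 8 members were called, 4 higher and 4 lower, among them 2 of the 3 chaperones. The sensor median was -0.52 without RU486 mouse 308, -0.39 without sham mouse 305 and -0.09 without EP mouse 322, in each case of the MSC libraries. With library weights 6 members were called, and Xbp1, Derl2, Herpud1, Pdia4, Ddit3 and Pdia6 were not (adjusted p from 0.0565 to 0.232).

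Chac1 averaged 6.36 ± 2.53 FPKM in MSC and 2.02 ± 1.06 FPKM in LP (SD, n = 6 and 16), a log2 difference of 1.28 (SE 0.23, adjusted p = 8.96e-05). Asns averaged 19.3 ± 3.67 FPKM in MSC and 13.5 ± 2.29 FPKM in LP, higher by 0.44 (SE 0.10, adjusted p = 0.00105), and Ddit3 20.3 ± 5.59 FPKM in MSC and 15.1 ± 6.36 FPKM in LP, higher by 0.53 (SE 0.19, adjusted p = 0.0219). The last was not called with the mouse block (log2 0.54, adjusted p = 0.198) nor without EP mouse 306 (0.0874) or RU486 mouse 324 (0.0524), and as deposited Asns was at -0.12 and Ddit3 at -0.02. Trib3 differed by 0.21 (SE 0.19, adjusted p = 0.3602) between the fractions and Atf4 by 0.38 (SE 0.19, adjusted p = 0.0962); without MSC sham mouse 305 the Atf4 adjusted p was 0.00621. Dnajb9 averaged 38.1 ± 12.5 FPKM in MSC and 21.2 ± 5.795 FPKM in LP, higher by 0.83 (SE 0.17, adjusted p = 2.92e-04), though as deposited its difference was not called (adjusted p = 0.204). Herpud1 averaged 66.2 ± 15.95 FPKM in MSC and 43.9 ± 14.6 FPKM in LP, higher by 0.69 (SE 0.20, adjusted p = 0.00634), and by 0.10 as deposited, which was not called (adjusted p = 0.680).

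The members lower in MSC included the gene of the sensor PERK. Eif2ak3 averaged 2.43 ± 1.05 FPKM in MSC and 5.23 ± 0.736 FPKM in LP, a difference of -0.90 (SE 0.13, adjusted p = 7.54e-06), and Derl3 averaged 0.347 ± 0.178 FPKM in MSC and 1.93 ± 0.739 FPKM in LP, a difference of -1.03 (SE 0.15, adjusted p = 9.83e-06). Derl3 was the only called member whose MSC and LP libraries did not overlap. Os9, Pdia4 and Pdia6 were lower by 0.57, 0.47 and 0.44 on the log2 scale. The Pdia6 difference was not called with the mouse block (log2 -0.47, adjusted p = 0.0677) nor without EP mouse 306 (0.102) or TPA mouse 323 (0.0791) of the MSC libraries. Xbp1 and Derl2 were lower by 0.45 and 0.29, and with the mouse block their differences were -0.37 (adjusted p = 0.130) and -0.25 (adjusted p = 0.102). Hspa5 differed by 0.11 (95% interval -0.27 to 0.49). Endothelial, adipocyte and fibroblast markers were higher in the same MSC libraries, and their part in the members' values was not tested.

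Of 95 further ER and stress genes from a second list, 91 were tested in LM and 90 in LP. With EP over sham, 24 rose and 2 fell in LM (median 0.34), which is 26.4% and 2.2%, against 10.5% and 8.91% of all genes. In LP 22 rose and 13 fell (median 0.11), which is 24.4% and 14.4%, against 15.8% and 16.5% of all genes, so the share that fell is near the background. In LM the oligosaccharyltransferase subunit Ddost was higher by 1.09, the signal peptidase subunit Spcs3 by 1.41 and the translocon subunit Sec61g by 1.06. Eif4ebp1, a translation repressor and ATF4 target, was higher by 1.19. By group, 8 of 15 glycosylation genes and 6 of 15 translocation genes rose in LM and none of either fell. In LP the amino acid transporter chain Slc3a2, an ATF4 target like Ddit3, fell by 1.69 (adjusted p = 3.90e-06 in limma), Ppp1r15a, which reverses PERK signalling, fell by 1.44, and the ER-tethered factor Creb3l1 fell by 1.28. The tryptophan tRNA synthetase Wars rose there by 0.84. Of 18 ATF4 targets and eIF2 regulators, 4 rose and 2 fell in LM and 6 rose and 5 fell in LP. Over EP, 1 of the further genes rose and 2 fell with EP+TPA in LM, 3 rose and 19 fell with EP+RU486 in LM, 3 rose and 8 fell with EP+TPA in LP, and 5 rose and 17 fell with EP+RU486 in LP. The share that fell was 2.2% for EP+TPA in LM, against 3.09% of all genes, and 20.9% for EP+RU486 in LM, against 9.82%. In LP it was 8.89% for EP+TPA, against 10.3%, and 18.9% for EP+RU486, against 11.7%. The share that rose was under that of all genes in each of these, at 1.1% to 5.56% against 1.25% to 9.06%. Slc3a2 was higher than with EP in both antagonist groups of LP cells, by 1.03 with EP+TPA and 1.1 with EP+RU486. Qsox1, which oxidises cysteines in secreted proteins, was higher than with EP by 3.6 with EP+RU486 in LM, and in LP by 1.63 with EP+TPA and 1.4 with EP+RU486.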

How the data were processed

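Polyadenylated RNA of sorted mammary cells was amplified from nanogram amounts and sequenced in paired reads, per the labels' protocols. The submitters' processing notes name STAR, Cufflinks, DESeq2 and the build mm9, without versions. The deposited table is titled as read counts, but the authors' values are not whole numbers and have the scale of FPKM; how they were made is not given in the sources used here. They were treated as FPKM, no count test was run, and the read depth is unknown. The values of a library summed to 281351 to 349128 (LM), 297710 to 358375 (LP) or 217977 to 356258 (MSC). From identical lowest values shared between libraries, 3 sets were found (15 LM; 16 LP with 6 MSC; 10 MSC). Gene means are nearly equal over the sets (median absolute log2 deviation 0.04075 over 11008 genes); no source used here states such a step. It removes level differences between sets, so MSC fits carry the set as a term and fractions were compared inside 1 set only.

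Libraries were rescaled within a set by median-ratio factors (LM 0.8631 to 1.228; LP 0.9473 to 1.283; MSC 0.5043 to 1.316) applied above each gene's shared lowest value. Genes with a value of at least 1 in 3 libraries were tested with limma 3.58.1 in R 4.3.3 on log2(value + 1), with trended and robust moderation, all 4 treatments of a fraction in 1 fit, and Benjamini-Hochberg adjustment over all genes. In 22007 symbols, 27 that look like dates were left out. Replicates are separate mice. For MSC against LP the 6 mice in both fractions pair the samples, and the fit with the mouse as a block is given where it changes a call. In simulated data, log2 changes of 1 were recovered for 43% of genes in LM, 86% in LP and 39% in MSC, and changes of 2 for 93%, 98% and 84%. The simulation changed a small share of genes, in EP only, with independent normal noise, and tested EP over sham. In the data, 19.5% of genes in LM and 32.3% in LP were called for EP over sham. The simulated rates are therefore not the power of the comparisons given here.

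All members were described, with statistics for up to 8 called members of smallest p per comparison and for the ATF4 arm, and other statistics were picked after values were seen; of the other ER genes, up to 4 per comparison were named. The members and gene lists were chosen with earlier results of these data known. Promoters are RefSeq sequence of another build (GRCm38.p6), so no expression coordinates were used.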

Additional observations from a re-analysis of the deposited data

Results flagged for a closer look

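Of 418 groups of 4 libraries examined for a member, 25 (5.98%) had 1 library whose gap to the nearest of the others was beyond Dixon's 95% limit, where chance flags about 5% of groups. No explanation was tested for any of them.

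In sham LM libraries, mouse 301 stood apart for Atf4 (292.6 FPKM, others 143 to 165), for P4hb (194 FPKM, others 117 to 127) and for Dnajb11 (24.6 FPKM, others 20.7 to 20.9), and mouse 305 for Sdf2l1 (28.7 FPKM, others 7.57 to 10.6). With EP+RU486 in LM, mouse 313 was high for Pdia6 (131 FPKM, others 83.3 to 88.4) and Sdf2l1 (27.1 FPKM, others 9.44 to 10.6), while mouse 333 was high for Hspa5 (691 FPKM, others 343 to 399.9) and low for Sel1l (10.8 FPKM, others 12.7 to 12.8). With EP+TPA in LM, Hsp90b1 was low in mouse 328 (122 FPKM, others 149 to 153), Pdia4 high in mouse 332 (80.3 FPKM, others 66.0 to 68.1) and Derl1 high in mouse 336 (27.95 FPKM, others 20.3 to 21.4).

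In LP cells, EP+TPA mouse 336 was high for Dnajb9 (22.7 FPKM, others 18.9 to 19.5), P4hb (250.2 FPKM, others 187 to 192), Derl1 (26.8 FPKM, others 19.3 to 20.0) and the translocon gene Sec61a1 (101 FPKM, others 67.1 to 67.5). With EP+RU486, Eif2ak3 was low in mouse 308 (4.08 FPKM, others 4.63 to 4.74), Atf4 high in mouse 324 (189.8 FPKM, others 135 to 140.0) and Herpud1 high in mouse 329 (65.8 FPKM, others 41.8 to 45.1). EP mouse 327 was high for Sel1l (20.4 FPKM, others 10.7 to 11.9). Sham mouse 305 was high for Ddit3 (30.6 FPKM, others 21.2 to 22.1) and low for Derl1 (21.2 FPKM, others 25.9 to 26.4).

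In MSC, EP mouse 327 was low for Hspa5 (298 FPKM, others 542 to 575) and Dnajb11 (22.8 FPKM, others 28.2 to 29.0); its endothelial markers were listed at 0. Sham mouse 326 was low for Dnajb9 (10.5 FPKM, others 31.6 to 35.2) and sham mouse 334 for Syvn1 (9.65 FPKM, others 13.5 to 13.7). Each MSC group holds libraries of both value sets, whose levels cannot be compared. The chance rate given above may therefore not hold for these groups.

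Chac1 differed in direction between fractions for EP+TPA over sham, with a log2 difference of -0.89 in LP and 1.13 in MSC, every library of each EP+TPA group lying on its own side of sham. Of all genes tested, 7.55% were lower without overlap in LP and 0.674% higher in MSC. The MSC groups pool both value sets, whose levels cannot be compared. Inside the sets the MSC difference was 0.52 (1 EP+TPA and 1 sham library) and 1.33 (3 and 3). The LP call was lost when any single library was left out, and the MSC difference was not called. The difference between the fractions was not tested.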

How the results depend on the processing

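Alternatives were run on every count of called members and on the named members. Values as deposited, without rescaling, gave 7 called members for EP+TPA over EP in LM and 9 in LP, 25 for EP over sham in LP, and 29 for MSC over LP, where Asns was at -0.12 and Ddit3 at -0.02, opposite to the rescaled direction. Of all genes as deposited, 167 were higher and 621 lower for EP+TPA over EP in LM, and 540 and 2172 in LP. For EP over sham in LP they were 3945 and 949, and for MSC over LP 1676 and 7074, so many of all genes were called too. With library weights the counts were 21 for EP over sham, 7 for EP+TPA over EP and 16 for EP+RU486 over sham in LM; 10 for EP+TPA over EP, 5 for EP+TPA over sham and 8 for EP+RU486 over sham in LP; 4 for EP over sham in MSC; and 6 for MSC over LP. With only the 2 groups compared in the fit they were 0 for EP+TPA over EP, 6 for EP+TPA over sham and 11 for EP+RU486 over sham in LM, and 1 for EP+TPA over EP, 4 for EP+RU486 over EP and 7 for EP+RU486 over sham in LP. A pseudocount of 0.1 gave 0 for EP+TPA over EP in LM and 1 for EP+TPA over sham in LP, and no filter gave 1 for each of these. The share of all genes called under the settings other than values as deposited is not given here, so those counts have no background. For these shifts the cause was not tested.

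Leaving out single libraries gave, in LM, 8 to 15 called members for EP over sham, 0 to 6 for EP+TPA over EP, 5 to 9 for EP+RU486 over EP, 6 to 12 for EP+TPA over sham and 4 to 9 for EP+RU486 over sham. In LP the ranges were 9 to 13 for EP over sham, 1 to 11 for EP+TPA over EP, 3 to 16 for EP+RU486 over EP, 1 to 2 for EP+TPA over sham and 0 to 3 for EP+RU486 over sham. They were 10 to 15 for MSC over LP and 0 to 0 for the treatments in MSC and for EP+TPA over EP+RU486 in all fractions. Over the named members, settings other than leaving out a library kept direction and side of the threshold in 749 cases, lost the call in 59, gained it in 20 and turned the direction in 2; leaving out a library gave 1053, 154, 11 and none turned. A block by mouse was possible only for MSC over LP, where 8 members were called with it, against 12 without; Ddit3, Xbp1, Derl2 and Pdia6 lost their calls, as given above, and the other 8 kept theirs.

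The number of mice and the value sets limit these results. Read depth behind a value is unknown, so no counting interval can be given, and the error of low genes is the least known; Derl3 is the lowest member, at means of 0.997 to 1.93 FPKM. Levels between LM and the other fractions cannot be compared, and differences of a treatment effect between fractions were not tested.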
